A study of Mus musculus with 6 samples.

Results

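The 5 mouse dopamine receptor genes (Drd1, Drd2, Drd3, Drd4 and Drd5) were examined together with 3 genes known from striatal neurons, Ppp1r1b, Adora2a and Gpr6. The 8 genes were taken by gene name from a deposited FPKM table of 55414 genes, and each name occurred once. FPKM is a fragment number divided by gene length and by library depth, a level that can be compared between genes. The libraries came from male mice of unstated strain and age, from neurons of the medial mammillary nucleus (part of the hypothalamus). One group was PV-positive by its genotype label (3 libraries, titled 6, 7 and 8) and the other Drd2-positive (3 libraries, titled 1, 2 and 3). PV is parvalbumin, a calcium-binding protein. The labels name no driver line, reporter or treatment that separates the groups, and both shared 30 min of papain digestion and aspiration of fluorescent cells into glass electrodes. The 3 libraries of a group are biological replicates per the series design, with the number of mice or cells behind each unstated. Values are given below in replicate order, 1, 2 and 3 for Drd2 and 6, 7 and 8 for PV. The comparison asks whether Drd2 neurons of this nucleus carry genes known from striatal D2 neurons.

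Dopamine receptors are G-protein-coupled receptors of 2 classes. The D1-like receptors, Drd1 and Drd5, couple to stimulatory G proteins and raise cyclic AMP, and the D2-like receptors, Drd2, Drd3 and Drd4, couple to inhibitory G proteins and lower it. In the striatum, D2 neurons of the indirect pathway also carry Adora2a, an adenosine receptor, and Gpr6, an orphan receptor with high activity in the absence of a known ligand, both of which raise cyclic AMP. Ppp1r1b encodes DARPP-32, a phosphoprotein that inhibits protein phosphatase 1 once protein kinase A has acted on it, and is abundant in both D1 and D2 striatal neurons.

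Drd2 was present in every Drd2 library at 7.74 FPKM or more, and none of its 3 striatal companions was present with it in all of them. Adora2a was listed at 0 in all 6 libraries, Gpr6 was at 35.6 and 42.3 FPKM in 2 of the 3 PV libraries and at most 1.79 in the Drd2 libraries, and Ppp1r1b overlapped between the groups, at 0 to 3.98 FPKM in Drd2 and 0 to 11.2 in PV. Of other genes known from striatal D2 neurons, Penk was at 85.2 and 37.7 FPKM in 2 of the 3 Drd2 libraries and Grik3 at 4.64 to 5.75 FPKM in all 3. Gpr52 overlapped between the groups, and Ptprm reached 1 FPKM in 1 library alone. Six3 was at most 0.0673 FPKM, and Sp9 was listed at 0 throughout. Drd1, Drd4 and Drd5 were listed at or near 0 everywhere, and Drd3 was present in 3 libraries that crossed the groups. Among the 48 values of the 8 genes, 30 were exactly 0 and 13 reached 1 FPKM. An exact 0 in a table without counts may also be a failed estimate, so such a gene is said only to be listed at 0.

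The windows before the transcription start are shown for the 2 genes of the set with the highest levels, Drd2 and Gpr6, because they were highest in opposite groups. RefSeq (GRCm38.p6) gave such a window for 6 of the 8 genes, and none for Ppp1r1b and Adora2a. Each line holds the 250 bases before the start, 5′ to 3′ on the gene's strand. Capitals mark matches on either strand to the GC box GGGCGG or to the cAMP response element TGACGTCA. The Drd2 window lies on the plus strand at chr9:49340153-49340402 and the Gpr6 window on the minus strand at chr10:41072291-41072540.
Drd2: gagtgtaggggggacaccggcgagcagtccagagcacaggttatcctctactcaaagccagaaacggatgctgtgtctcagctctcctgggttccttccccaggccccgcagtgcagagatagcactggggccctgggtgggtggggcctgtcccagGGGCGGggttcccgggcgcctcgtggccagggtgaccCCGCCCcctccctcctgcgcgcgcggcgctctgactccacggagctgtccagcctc
Gpr6: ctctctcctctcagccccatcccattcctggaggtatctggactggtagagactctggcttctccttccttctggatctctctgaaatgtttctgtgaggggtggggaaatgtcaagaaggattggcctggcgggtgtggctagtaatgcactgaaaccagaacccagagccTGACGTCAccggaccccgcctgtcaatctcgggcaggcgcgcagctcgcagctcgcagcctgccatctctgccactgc

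The Drd2 window held 2 matches to the GC box, the binding sequence of Sp1-type factors, beginning 93 and 56 bases before the start. A GC box occurred in 32.7% of 32851 RefSeq windows of the same length. The Gpr6 window held 1 match to the cAMP response element, the binding sequence of CREB, beginning 78 bases before the start. That element occurred in 1.55% of all windows, and in none of the other windows of the set. Neither window held the TATA box letters TATAAA, present in 12.4% of all windows. A match is a description of the sequence and says nothing of a factor's binding there.

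Before the single genes, the libraries were compared. The denominators recovered from the FPKM values were 2.38e+07 to 3.37e+07 fragments, and 8610 to 12398 genes reached 1 FPKM, the fewest in PV replicate 7. Of genes reaching 10 FPKM in at least 1 library of a group, 14.7% in PV and 9.11% in Drd2 were listed at 0 in another library of the same group. Mitochondrial transcripts took 9.62% to 31.3% of summed FPKM in PV libraries, above the 3.74% to 5.20% of Drd2 libraries. The 4 haemoglobin genes were each higher in every PV library than in any Drd2 library, with sums of 743 to 3203 FPKM against 0 to 11.5, and the 3 of them tested passed. Microglial markers (9 genes) summed to 3540 FPKM in Drd2 replicate 3 and 1313 in PV replicate 6, and to 23.9 to 860 in the other libraries. Oligodendrocyte markers (8 genes) summed to 1349 FPKM in Drd2 replicate 2 and to 68.3 to 357 elsewhere, and astrocyte markers (7 genes) to 143 to 559. Most of each astrocyte sum was Aldoc, at 137 to 512 FPKM, and no other astrocyte marker passed 19.4 FPKM in any library. Vascular (7 genes) and ependymal markers (4 genes) summed to at most 8.05 FPKM in any library, and 4 of 5 anterior pituitary markers were listed at 0 throughout. Markers of other hypothalamic neurons nearby (7 genes) summed to 0.0426 to 22.8 FPKM. Among them, Pomc was at 7.22, 6.12 and 3.88 FPKM (Drd2) and 0, 17.8 and 6.61 FPKM (PV), and Trh at 13.9 FPKM in Drd2 replicate 2 alone. Both groups carried mammillary markers, with 5 to 7 of 8 at 1 FPKM or more in each library. Among them, the glutamate transporter Slc17a6, at 108 to 144 FPKM, and the transcription factor Lhx1 overlapped between the groups. Foxb1 did not overlap, at 76.4, 52.6 and 26.4 FPKM in Drd2 libraries against 24.0, 4.19 and 14.7 in PV libraries. PV replicate 6 lay just under Drd2 replicate 3. Exons of Foxb1 share 418 of 2984 bases with the antisense gene B230323A14Rik, so its level is uncertain to that extent. B230323A14Rik was at 157, 92.1 and 113 FPKM (Drd2) and 87.6, 41.8 and 64.1 FPKM (PV). Nkx2-4 reached 1 FPKM in Drd2 libraries alone, at 4.62, 9.66 and 1.48 FPKM, with every PV value at 0. The filter thus fixed the direction of Nkx2-4, and nothing is read from it. Of 6 mammillary markers tested, 5, Nkx2-4 among them, had a difference below 0 (higher in Drd2) and 1 above, and none passed. Over all tested genes, 61.6% were below 0. In such bulk samples, fewer cells of a type and less RNA per cell cannot be told apart.

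Drd2 is the gene for which 1 of the groups is named, so its values check the labels. It lies on mm10 chromosome 9, 49340627 to 49408177, on the plus strand (ENSMUSG00000032259), with 1 annotated transcript of 2547 bases. Drd2 libraries held 42.7, 55.0 and 7.74 FPKM and PV libraries 0.0132, 0 and 0 FPKM. The groups did not overlap, and Drd2 replicate 3 was the lowest of its group. In reads recovered from the FPKM values this was 3673, 4207 and 470 fragments against 1, 0 and 0, where 3 fragments are worth 0.0349 to 0.0494 FPKM. Drd2 stood above 86.9% and 90.9% of the genes at 1 FPKM or more in Drd2 replicates 1 and 2, and above 53.1% in Drd2 replicate 3. Oligodendrocyte markers were also highest in Drd2 replicates 1 and 2, where their sums were 357 and 1349 FPKM, against 74.2 in Drd2 replicate 3 and 298, 320 and 68.3 in PV. Of the 8 markers, 7 had a difference below 0, and Mog was at 51.5, 254 and 7.85 FPKM (Drd2) against 2.54, 0 and 0.228 FPKM (PV) with no overlap. The part of other cells in the Drd2 values was not tested.

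The same replicate 3 held the most Pvalb of its group, so it departed from the other Drd2 libraries in both label genes. For Pvalb, Drd2 libraries held 10.4, 22.5 and 99.5 FPKM and PV libraries 349, 482 and 563 FPKM. The log2 ratio of Drd2 to Pvalb, with 1 FPKM added to each, was 1.93 and 1.25 in Drd2 replicates 1 and 2 and -3.52 in Drd2 replicate 3. In the PV libraries it was -9.14 to -8.43, so Drd2 replicate 3 lay between the others and the PV libraries.

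Of the 8 genes, 3 (Drd2, Gpr6 and Ppp1r1b) reached 1 FPKM in at least 3 libraries and so entered the test across all genes. None of the 3 passed limma's moderated test with Benjamini-Hochberg adjustment at 0.05, where 0.261% of 11478 genes did (0.218% on the Drd2 side and 0.0436% on the PV side). Before adjustment, Gpr6 and Drd2 had a p under 0.05, as did 12.8% of all genes (9.77% on the Drd2 side and 3.02% on the PV side). Drd2 names its group and reached 1 FPKM only in the 3 libraries of that group, so it had to differ, and nothing is read from its place in this count. Limma voom on recovered reads also called 0 of the 3, where it called 0.192% of all genes. It had 2 of the 3 at an unadjusted p under 0.05, as were 1452 of all 11431 genes in that fit. Drd2 had a log2 difference, PV minus Drd2, of -4.79 ± 0.81 (SE; limma adjusted p = 0.0501), and its exact permutation p was 0.1, the smallest that 3 against 3 allow. Without Drd2 replicate 3 the difference was -5.62 ± 0.72 (limma adjusted p = 0.0663). Its direction was the same in all 20 alternatives, while its limma adjusted p ran from 0.0244 to 0.340. It lay under 0.05 in 7 of them, where the share of all genes called was 0.374% (1 FPKM in 1 library), 0.227% (TPM), 0.592% (quantile normalization), 0.401% (no trend), 0.462% (robust trend), 0.915% (array weights) and 0.157% (without PV replicate 7 and Drd2 replicate 3). The groups did not overlap for Drd2, which the filter fixed, and overlapped for Gpr6 and Ppp1r1b, while over all genes they did not overlap for 19%, with Drd2 higher in 13.1% and PV higher in 5.83%. With a PV group at 1 fragment in all, the fitted difference depends on the added 1 FPKM and is no bound on the fold.

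**Figure D1:**
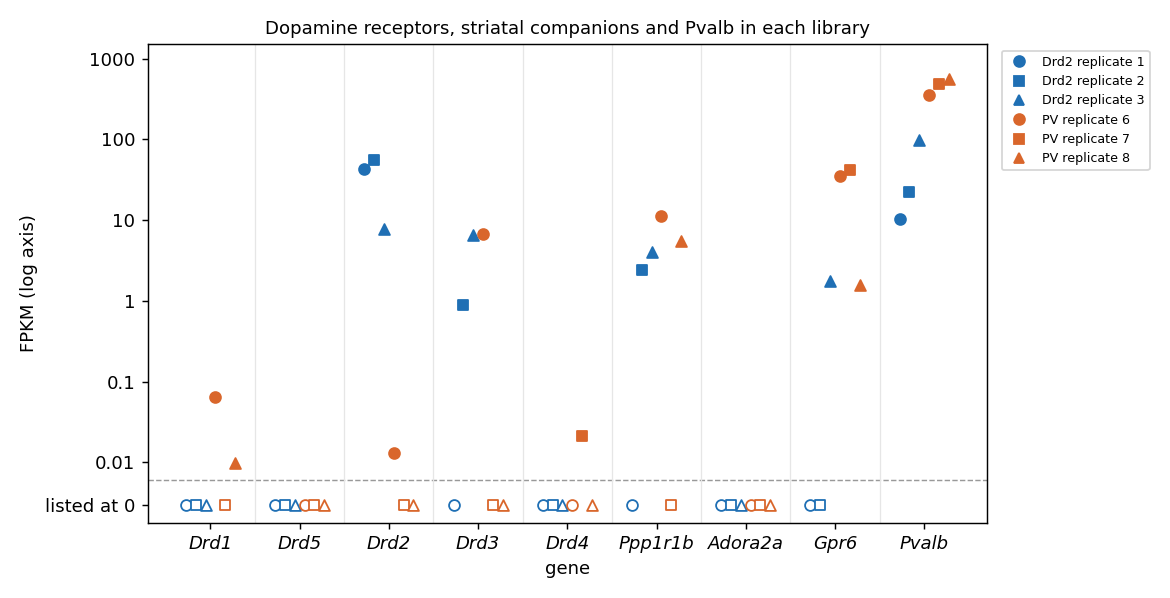
FPKM (log axis, with values listed at 0 drawn open below the dashed line) of the 8 genes and Pvalb in each library, blue for Drd2 and orange for PV, with 1 marker shape per replicate. Drd2 is at 7.74 to 55.0 FPKM in the Drd2 libraries, Gpr6 at 35.6 and 42.3 in PV replicates 6 and 7, and Adora2a and Drd5 are listed at 0 in every library.

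Drd3 was the other D2-like receptor that reached 1 FPKM. Its gene lies on chromosome 16, 43754026 to 43822932. Drd2 libraries held 0, 0.895 and 6.57 FPKM of it and PV libraries 6.78, 0 and 0 FPKM. The groups overlapped, each with at least 1 library at 0, and the exact permutation p was 1. These values rest on 46, 268 and 346 fragments. In Drd2 replicate 3 Drd3 made up 45.9% of the summed FPKM of the 5 receptors and Drd2 54.1%, whereas in Drd2 replicates 1 and 2 Drd2 made up 100% and 98.4%. In PV replicate 6 Drd3 made up 98.9% of a sum of 6.86 FPKM. Drd2 replicate 3 and PV replicate 6, where Drd3 was highest, also had the highest microglial sums, and the part of other cells in these values was not tested.

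Drd4, the third D2-like receptor (chromosome 7, 141292006 to 141296464), had 2 fragments, 0.0214 FPKM, in PV replicate 7 and none in the other 5 libraries. The D1-like receptors were no more abundant. Drd1 (chromosome 13, 54051183 to 54055705) had 7 fragments in PV replicate 6, equal to 0.0647 FPKM, and 1 fragment, equal to 0.00972 FPKM, in replicate 8 of that group, with 0 elsewhere. Exact permutation p values were 0.4 for Drd1 and 1 for Drd4. Drd5 (chromosome 5, 38319367 to 38322518), whose exons share 1531 of 3152 bases with the antisense gene Gm26560, was listed at 0 in all 6 libraries, as was Gm26560. A count of 0 allows a level of up to 3 fragments, worth 0.0245 to 0.0347 FPKM for Drd1, 0.0263 to 0.0372 for Drd4 and 0.0282 to 0.0399 for Drd5. These limits cover counting error only, since copies made by PCR are not independent molecules, and they do not bound a failed estimate.

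By level, the receptors in the Drd2 libraries therefore ran from Drd2 (35.2 ± 24.5 FPKM, SD, n = 3) to Drd3 (2.49 ± 3.56) and then to Drd1, Drd4 and Drd5, all listed at 0 in that group. Drd2 lay above Drd3 in each Drd2 library, but in Drd2 replicate 3 the gap was 7.74 against 6.57 FPKM, within the spread of either gene over the group. In the PV libraries the sum of all 5 receptors was listed at 6.86, 0.0214 and 0.00972 FPKM, the first of these mostly Drd3. The longest exact run shared by transcripts of any 2 of the 5 receptors was 11 to 23 bases. No source used here gives the read length.

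Among the striatal companions, Adora2a (chromosome 10, 75316877 to 75334784) was listed at 0 in every library. A count of 0 allows up to 0.0290 to 0.0411 FPKM for this gene, with the same limits as above, and Drd2 in the same Drd2 libraries stood at 7.74 to 55.0 FPKM. With every value at 0 it could not be tested between the groups. The only adenosine receptor above 1 FPKM was Adora1, which couples to inhibitory G proteins and lowers cyclic AMP. Drd2 libraries held 0.364, 1.81 and 9.01 FPKM of Adora1 and PV libraries 16.0, 9.47 and 13.9 FPKM. All PV libraries lay above all Drd2 libraries, though PV replicate 7 by little over Drd2 replicate 3, with a log2 difference of 2.04 ± 0.80 (SE; limma adjusted p = 0.330). Exons of Adora1 share 1162 bases with Mybph on the other strand, itself listed at 0 throughout. Adora2b was listed at 0 in all libraries, and Adora3 reached 0.349 FPKM at most.

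Other genes of adenosine handling were present. Adenosine kinase, Adk, which removes adenosine, measured 13.2, 11.4 and 21.1 FPKM (Drd2) and 23.2, 44.6 and 42.1 FPKM (PV), with no overlap and a log2 difference of 1.20 ± 0.48 (SE; limma adjusted p = 0.336). The nucleoside transporters Slc29a1 and Slc29a2 overlapped between the groups, at means of 14.9 and 6.56 FPKM in Drd2 and 12.9 and 3.49 in PV. The ectonucleotidase Entpd1 was at 2.63 and 6.10 FPKM in PV replicates 6 and 7 and at most 1.35 in the others. Of the 9 genes in this list, 5 were tested and none passed, with Adora1 and Adk at an unadjusted p under 0.05, both higher in PV, where 3.02% of all genes were at that level on the PV side. The list median was 1.05, and that of all tested genes -0.28.

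Gpr6, known in the striatum from D2 neurons, was here highest in PV libraries. The gene lies on chromosome 10, 41069977 to 41072285, on the minus strand, with 1 annotated transcript of 1786 bases. PV libraries held 35.6, 42.3 and 1.56 FPKM, or 1894, 2093 and 79 fragments, and Drd2 libraries 0, 0 and 1.79 FPKM, or 0, 0 and 76 fragments. The groups overlapped because PV replicate 8 lay just under Drd2 replicate 3, the library with the highest Pvalb and lowest Drd2 of its group. The log2 difference was 3.50 ± 1.10 (SE; limma adjusted p = 0.216), with an exact permutation p of 0.2. Its direction was the same in all 19 alternatives that tested it, with a limma adjusted p of 0.0755 to 0.649, and without PV replicate 8 the difference was 4.82 ± 0.78 (limma adjusted p = 0.0755). Without Drd2 replicate 3 it was 3.995 ± 1.26 (limma adjusted p = 0.326). PV replicates 6 and 7 also had the highest mitochondrial shares (23.0% and 31.3%) and haemoglobin sums (2999 and 3203 FPKM), and PV replicate 8 the lowest of its group (9.62% and 743 FPKM). Whether these differences among libraries bear on Gpr6 was not tested.

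Gpr12 and Gpr3, the closest relatives of Gpr6 and likewise active without a known ligand, had other patterns. Levels of Gpr12 were 54.4, 17.4 and 22.5 FPKM (Drd2) and 2.91, 0 and 1.12 FPKM (PV). Every Drd2 library lay above every PV library, with a log2 difference of -3.83 ± 0.73 (SE; limma adjusted p = 0.0628). That adjusted p was 0.0475 with a filter of 1 FPKM in 1 library and 0.0474 with quantile normalization, the 2 alternatives of 20 that called it, and ran up to 0.388. Gpr3 reached 2.63 FPKM in Drd2 replicate 2 and 3.67 in PV replicate 6 and was at most 0.0516 elsewhere. Its exons share 204 bases with Cd164l2 on the other strand.

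Within a library, the balance of Gpr6 and Gpr12 stood apart by group. Gpr6 made up 0%, 0% and 7.36% of the summed FPKM of the 3 relatives in Drd2 replicates 1, 2 and 3. In PV its share was 84.4%, 100% and 57.0%, above every Drd2 library. The log2 ratio of Gpr6 to Gpr12, with 1 FPKM added to each, was -5.79, -4.20 and -3.07 for Drd2 and 3.23, 5.44 and 0.27 for PV. This ratio was formed after the values were seen and is given without a test. The longest exact run shared by transcripts of any 2 of the 3 genes was 14 to 15 bases.

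**Figure D2:**
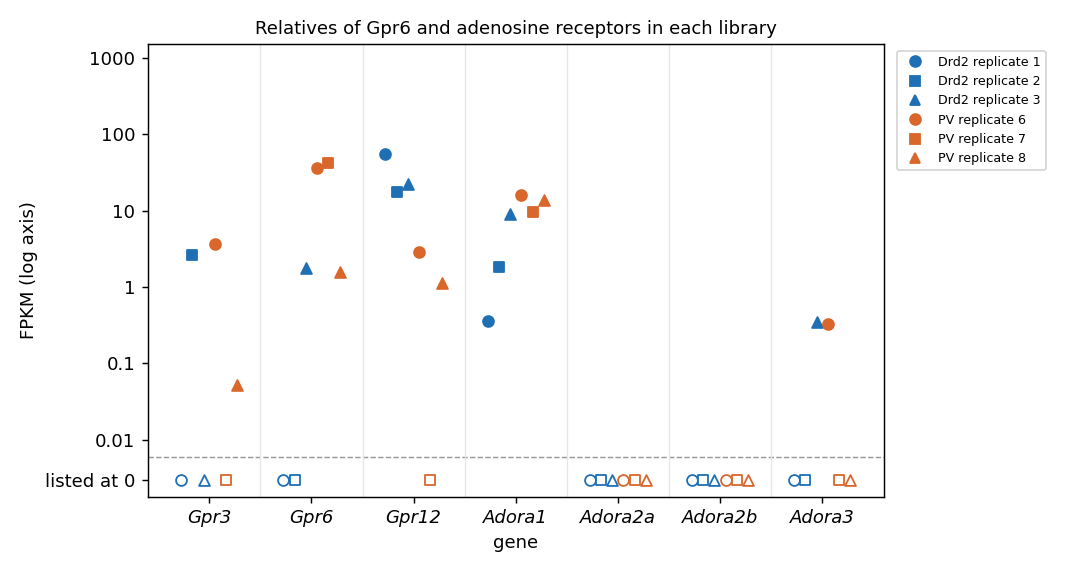
FPKM (log axis, with values listed at 0 drawn open below the dashed line) of the Gpr6 relatives and of the 4 adenosine receptors in each library. Gpr12 is at 17.4 to 54.4 FPKM in the Drd2 libraries and at most 2.91 in the PV libraries, Gpr6 is at 35.6 and 42.3 in PV replicates 6 and 7, and Adora2a and Adora2b are listed at 0 throughout.

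Ppp1r1b (chromosome 11, 98348404 to 98357796, plus strand, 7 annotated transcripts) showed no separation of the groups. Drd2 libraries held 0, 2.40 and 3.98 FPKM and PV libraries 11.2, 0 and 5.44 FPKM. Each group held 1 library at 0, and the library with the second highest Drd2 level, Drd2 replicate 1, was the one of its group without Ppp1r1b. The log2 difference was 0.74 ± 1.02 (SE; limma adjusted p = 0.802), with an exact permutation p of 0.5. Without PV replicate 6 it was -0.02, and without PV replicate 7 it was 1.79 (limma adjusted p = 0.445), where the groups did not overlap, so single libraries set both its sign and its size. Ppp1r1b shares 460 exon bases with 1700003D09Rik on the other strand, which was at most 0.0959 FPKM.

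The partners of DARPP-32 were expressed in both groups. Its relative Ppp1r1a, another inhibitor of protein phosphatase 1, averaged 75.2 ± 21.3 FPKM (Drd2) against 72.4 ± 39.6 FPKM (PV; SD, 3 libraries a group, as below). Its log2 difference was -0.18 ± 0.51 (SE) and turned to 0.0101 with median-of-ratios scaling, 0.143 with quantile normalization and 0.00109 after rescaling over nuclear genes. Ppp1ca, a catalytic subunit of that phosphatase, measured 143, 125 and 115 FPKM (Drd2) and 85.4, 26.1 and 107 FPKM (PV), with no overlap and a log2 difference of -1.02 ± 0.53 (SE; limma adjusted p = 0.457). Cdk5, which phosphorylates DARPP-32, was at 112 ± 34.5 against 68.5 ± 52.2 FPKM. The phosphatase subunit Ppp2ca was at 91.6 ± 11.3 against 71.2 ± 17.2 FPKM, and the calcineurin subunits Ppp3cb and Ppp3r1 had log2 differences of 0.80 ± 0.58 and -0.52 ± 0.39 (SE). Exons of Ppp1ca share 225 bases with Rad9a, those of Ppp2ca 2985 with 9430098F02Rik and those of Ppp3r1 462 with Wdr92, so their levels are uncertain to that extent. Of 15 genes in this list 14 were tested, 7 with a difference above 0 and 7 below, none passed, and none had an unadjusted p under 0.05.

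Genes shared by striatal projection neurons of both pathways were present only in part. Of 16 such genes 9 were tested, 7 of them with a difference below 0, and none passed. Pde1b, a calcium-dependent phosphodiesterase, measured 75.7, 55.1 and 66.7 FPKM (Drd2) and 28.9, 8.46 and 46.9 FPKM (PV), with no overlap and a log2 difference of -1.47 ± 0.59 (SE; limma adjusted p = 0.337). Ptpn5, the striatal-enriched tyrosine phosphatase STEP, measured 35.1, 32.0 and 17.7 FPKM (Drd2) and 19.6, 7.77 and 8.00 FPKM (PV), where PV replicate 6 lay above Drd2 replicate 3. Its log2 difference was -1.26 ± 0.54 (SE; limma adjusted p = 0.375). Arpp21, a phosphoprotein regulated by cyclic AMP, was at 20.3 ± 2.28 against 14.0 ± 5.96 FPKM and Rasd2, a striatal small GTPase, at 15.3 ± 13.9 against 19.9 ± 13.0. Rgs9, which speeds the shutting off of inhibitory G proteins, measured 6.02, 8.45 and 2.54 FPKM (Drd2) and 1.14, 3.66 and 0.0497 FPKM (PV). The stimulatory G-protein subunit Gnal, which shares 852 exon bases with Mppe1 on the other strand, averaged 4.24 against 9.98 FPKM. The list median was -0.70, beside -0.28 for all genes.

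The 7 genes of that list under the filter included regulators of striatal identity, named here after their values were seen. Bcl11b, a transcription factor of striatal projection neurons, was at 0 in all Drd2 libraries and reached 3.14 FPKM in 1 PV library, replicate 8. Foxp2 and Meis2 were listed at 0 in all Drd2 libraries and stayed under 1 FPKM in PV. Foxp1, a relative of Foxp2, was above 0 in all 6 libraries, at 0.0625, 1.70 and 0.436 FPKM (Drd2) and 0.815, 0.433 and 0.477 FPKM (PV).

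Among other markers of striatal D2 neurons, Penk, the precursor of enkephalin, was the most abundant. Drd2 libraries held 85.2, 37.7 and 0 FPKM of Penk and PV libraries 4.17, 0 and 0 FPKM. The 2 libraries rich in Drd2 were thus those rich in Penk, and they were also those of their group with the higher oligodendrocyte sums given above, whose part in Penk was not tested. Drd2 replicate 3 was listed at 0 for Penk, and the groups overlapped. The log2 difference was -3.11 ± 1.50 (SE; limma adjusted p = 0.435), and it was -1.85 without Drd2 replicate 1 and -5.06 without Drd2 replicate 3 (limma adjusted p = 0.746 and 0.146). Grik3, a kainate receptor subunit, measured 4.64, 5.75 and 4.85 FPKM (Drd2) and 2.46, 0.217 and 0.979 FPKM (PV), with no overlap and a log2 difference of -1.58 ± 0.66 (SE; limma adjusted p = 0.359). Gpr52, an orphan receptor of striatal D2 neurons, measured 1.12, 0.488 and 12.04 FPKM (Drd2) and 7.05, 0 and 6.23 FPKM (PV), so it was lowest where Drd2 was highest within the Drd2 group. Ptprm reached 1.02 FPKM in 1 library, Six3 stayed under 0.1 FPKM, and Sp9, a transcription factor needed for striatal D2 neurons, was listed at 0 in every library. Of these 6 genes 3 were tested and none passed, with a median of -1.58.

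Markers of striatal D1 neurons were mostly at or near 0 in both groups. Of 8 genes only Sfxn1, a mitochondrial serine transporter, was tested, at 12.04 ± 2.23 FPKM (Drd2) against 8.31 ± 2.79 FPKM (PV), a log2 difference of -0.52 ± 0.54 (SE). Tac1, the precursor of substance P, was at 28.7 FPKM in Drd2 replicate 3 and at most 1.26 in the other libraries. Pdyn, the precursor of dynorphin, was found in PV replicate 8 alone, at 1.84 FPKM, and Ebf1 stayed under 0.3 FPKM. Chrm4 and Slc35d3 were listed at 0 throughout.

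**Figure D3:**
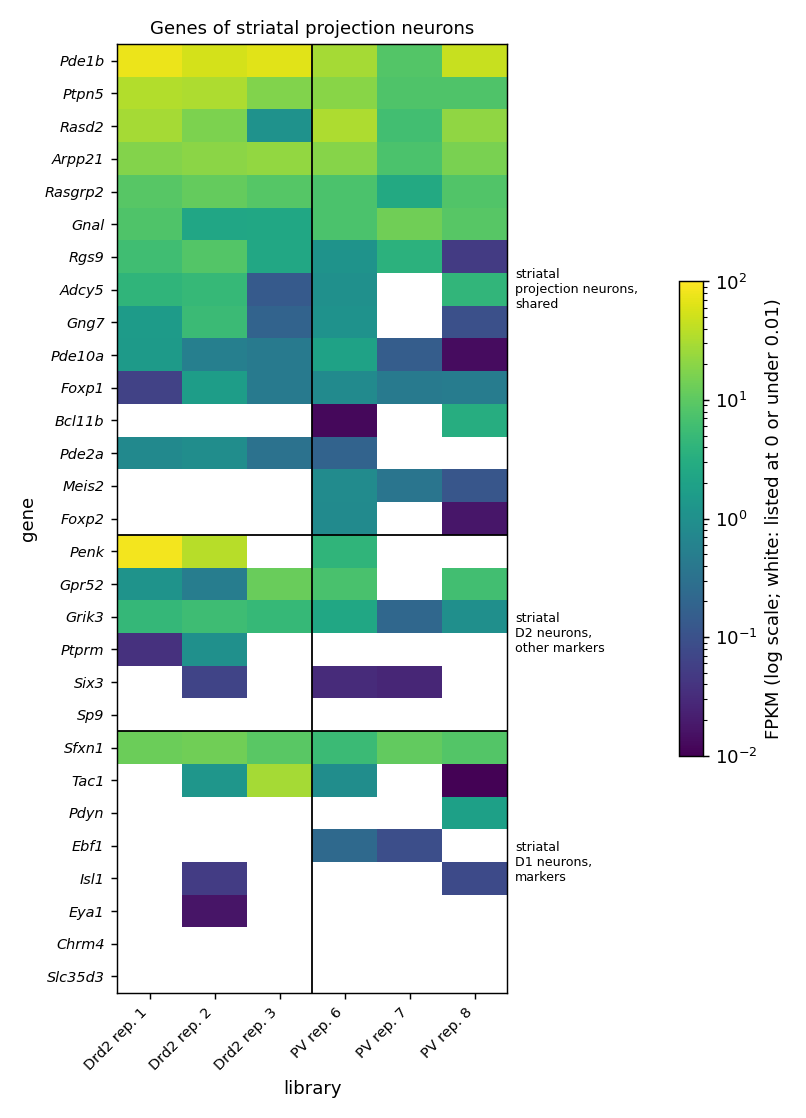
FPKM on a log colour scale of genes of striatal projection neurons (rows, by list and then by mean level) in the 6 libraries (columns), with white for values listed at 0 or under 0.01. Pde1b, Ptpn5 and Arpp21 are coloured in every library, Penk is at 85.2 and 37.7 in Drd2 replicates 1 and 2, and Bcl11b, Foxp2 and Meis2 are white in all Drd2 libraries.

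Downstream of the receptors, the inhibitory G proteins and protein kinase A subunits were expressed in both groups. Of 22 genes 21 were tested, 10 with a difference above 0 and 11 below, none passed, and the median was -0.01. The kinase regulatory subunit Prkar1a averaged 264 ± 17.2 FPKM (Drd2) against 266 ± 74.0 FPKM (PV), a log2 difference of -0.02 ± 0.35 (SE) that was 0.172, 0.168 and 0.162 under the scalings named above. Prkar1b measured 160, 140 and 146 FPKM (Drd2) and 97.4, 43.9 and 119 FPKM (PV), with no overlap and a log2 difference of -0.88 ± 0.44 (SE; limma adjusted p = 0.442). The catalytic subunit Prkaca was at 46.2 ± 10.4 against 36.3 ± 26.7 FPKM. Gnai2, an inhibitory G-protein subunit also abundant in microglia, measured 25.6, 49.8 and 81.9 FPKM (Drd2) and 50.0, 14.1 and 8.04 FPKM (PV). It was highest in Drd2 replicate 3, which had the highest microglial sum. It was lowest in PV replicates 7 and 8, with microglial sums of 860 and 419 FPKM, above the 23.9 and 89.8 of Drd2 replicates 1 and 2. The part of other cells in Gnai2 was not tested. The adenylyl cyclases Adcy3 and Adcy9 had differences of opposite sign, at means of 2.17 against 0.149 FPKM and of 0.957 against 4.76 (log2 differences -1.46 ± 0.52 and 1.59 ± 0.73, SE; limma adjusted p = 0.275 and 0.408). Adcy3, which shares 1380 exon bases with Cenpo on the other strand, reached 1 FPKM in Drd2 libraries alone. The filter thus fixed the direction of Adcy3, and nothing is read from it.

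Among regulators of receptor signalling, Rgs4 and Caly were higher in every Drd2 library than in any PV library. They were 2 of the 12 genes tested, and 2 others were higher in every PV library. Over all genes the groups did not overlap for 13.1% with Drd2 higher and 5.83% with PV higher, so nothing is read from these counts. Rgs4, which speeds the shutting off of inhibitory G proteins, measured 294, 265 and 174 FPKM (Drd2) and 78.2, 94.4 and 84.7 FPKM (PV). The log2 difference was -1.47 ± 0.36 (SE; limma adjusted p = 0.132). Caly, which encodes calcyon, a vesicle protein described as a partner of dopamine receptors, measured 557, 473 and 230 FPKM (Drd2) and 115, 41.6 and 154 FPKM (PV). Its log2 difference was -2.11 ± 0.55 (SE; limma adjusted p = 0.154), and within the Drd2 group it was lowest in replicate 3, as Drd2 and Rgs4 were. The receptor kinase Grk5 measured 0, 0 and 0.238 FPKM (Drd2) and 1.34, 4.66 and 3.24 FPKM (PV). Its log2 difference was 1.83 ± 0.56 (SE, limma adjusted p = 0.211). Grk5 reached 1 FPKM in PV libraries alone, so the filter fixed its direction and its lack of overlap, and nothing is read from them. Gnb5, the partner of Rgs9, was at 75.8 ± 24.0 against 59.8 ± 7.34 FPKM, the calcium sensor Ncs1, which binds the D2 receptor, at 20.3 ± 6.53 against 44.3 ± 30.1, and the kinase Akt1 at 24.4 ± 3.17 against 14.6 ± 16.9. Of 13 genes 12 were tested, 8 with a difference below 0, none passed, and the median was -0.42.

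Genes of dopamine synthesis were low. Of 8 genes for synthesis, transport and breakdown 5 were tested and none passed, with a median of 0.96. Tyrosine hydroxylase, Th, the first enzyme of synthesis, measured 1.11, 3.51 and 0 FPKM in PV and was at 0 in every Drd2 library. The dopamine transporter Slc6a3 reached 0.0105 FPKM at most. Ddc, which makes dopamine from its precursor, was at 2.34 FPKM in Drd2 replicate 2 and at 2.14 and 10.4 in PV replicates 6 and 7. The degrading enzyme Maoa was at 4.74 ± 2.78 FPKM (Drd2) against 12.2 ± 9.52 FPKM (PV), and Maob at 9.22 ± 5.59 against 6.45 ± 7.61. Aldh1a1, an aldehyde dehydrogenase of some dopamine neurons, was at 10.7 ± 8.29 against 19.4 ± 6.96 FPKM.

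**Figure D4:**
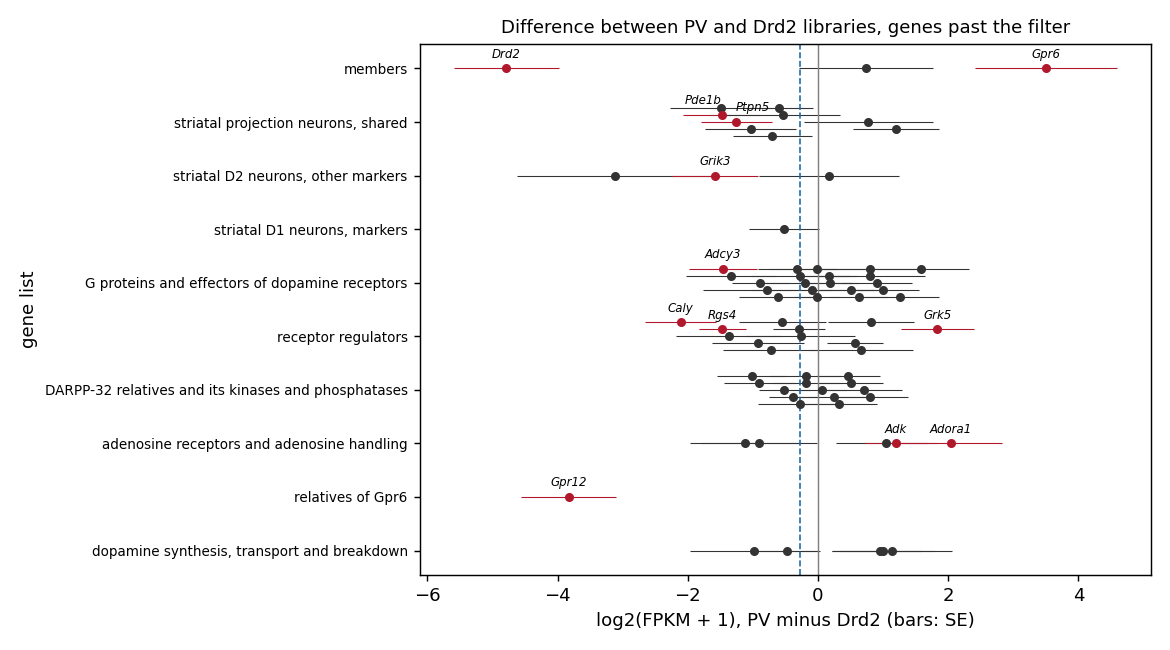
Differences in log2(FPKM + 1), PV minus Drd2, of the genes past the filter in each list, with bars for the SE, a dashed line at the median of all tested genes (-0.28), and red points with names for an unadjusted limma p under 0.05. Drd2 (-4.79) and Gpr12 (-3.83) lie far to the left and Gpr6 (3.50) far to the right, while the lists of G proteins and DARPP-32 partners lie around 0.

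Over the 9 lists of striatal and dopamine pathway genes other than the 8 themselves, 99 genes were found in the table and 71 were tested. Limma called 0 of these. Before adjustment 10 had a p under 0.05 (14.1%, against 12.8% of all genes), 7 higher in Drd2 (9.86% against 9.77%) and 3 higher in PV (4.23% against 3.02%), so the shares lay near those of all genes. Among the 10, Adcy3 and Grk5 reached 1 FPKM in 1 group alone, so the filter fixed their direction. Limma voom on recovered reads also called none of 70. It had 12 at an unadjusted p under 0.05, as were 1452 of all 11431 genes in that fit. Differences were below 0 in 41 of the 71, where 61.6% of all tested genes were below 0. Of the neighbours of Drd2 on chromosome 9, Ankk1 was at 0.503, 0 and 0.356 FPKM (Drd2) and listed at 0 in all PV libraries, and Ttc12 was listed at 0 except at 2.27 FPKM in PV replicate 6.

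Likeness of pattern was measured as Pearson's r of log2(FPKM + 1) over the 6 libraries, which share their depth and group structure, and is given as a description. An r above 0.9 was common, with 295 tested genes for Drd2, 44 for Gpr6 and 139 for Ppp1r1b. The 8 tested genes most like Drd2 had an r of 0.990 to 0.995 and were Pithd1, Magel2, Gm25492, Spef1, Gm7908, Tmem26, Gm13716 and Gm32647. All of them but Pithd1 reached 1 FPKM in Drd2 libraries alone, so the filter fixed their direction. Magel2, an imprinted gene of the hypothalamus, measured 8.42, 9.43 and 2.19 FPKM (Drd2) and at most 0.333 FPKM in PV. Those most like Gpr6 were Stk4, Gm44799, Spats2, Man2a1, Il1rapl1, Apoc1, the mitochondrial gene mt-Nd1 and Larp4, with an r of 0.956 to 0.980. Of the 8 most like Ppp1r1b, 7 were Gm3636, Grwd1, Gm42853, Gpalpp1, Zyx, Sbno1 and Git2, with an r of 0.974 to 0.996. No gene of the striatal and dopamine pathway lists was among these.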

How the data were processed

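The authors deposited FPKM values for 6 libraries, from RNA taken with a column kit and a SMARTer kit per the labels' protocols, which name 1.3 ug of RNA as input. The submitters' processing notes list STAR, without version, and 3 builds (mm10, hg38, GRCh38). Which quantifier, strand setting and annotation were used is not stated, so reads of genes overlapping on opposite strands cannot be told apart. Positions and exon lengths came from GENCODE M21 (mm10), which held 94.1% of the identifiers. Low FPKM values times exon length fell within 0.01 read of a whole number for 97.9% to 98.7% of values up to 20 reads, which gave each library's denominator.

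The 11478 genes that reached 1 FPKM in 3 or more libraries entered a 2-sided limma test (3.58.1, R 4.3.3, trended prior variance) of log2(FPKM + 1), PV minus Drd2, adjusted by Benjamini-Hochberg over these genes. Folds of weakly expressed genes are understated on this scale. Single genes were compared by exact permutation of mean FPKM, 2-sided, over the 6 of 8 genes with a value above 0 (adjusted p of 0.6 or more for each). Medians and counts stand in place of a list test. This fit was also run on simulated data, with normal noise and with changes placed only in genes of high mean level. Drd2, Gpr6 and Ppp1r1b lay below that level and held values at 0, so the simulation does not cover them. The 8 genes and the lists were chosen with earlier results of these data known. Named were the 8 genes and Pvalb, up to 4 genes per list by mean level and up to 2 others by p, any gene past the threshold, and the 8 most like each tested one. Genes named outside this rule are Adora2a's relatives Adora2b and Adora3, Bcl11b, Foxp1, Foxp2, Meis2, Six3, Sp9, Chrm4, Slc35d3, Th and Slc6a3, chosen after their values were seen. Some genes that the lists or this rule take are counted but not reported here by name.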

Additional observations from a re-analysis of the deposited data

How the results depend on the processing

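Alternatives were pseudocounts, filters, scalings, variance models, array weights, voom and leaving out each library, with the tested genes kept. Added after the data were seen were a nuclear rescaling (FPKM over protein-coding genes of the nucleus) and a fit without both PV replicate 7 and Drd2 replicate 3. No paired analysis was possible because the groups share no replicate number. Over all genes limma called 30, against 4 with a pseudocount of 0.1 FPKM, 68 with 5 FPKM, with 1 FPKM in 1 library and with quantile normalization, 46 without a trend, 53 with a robust trend and 105 with array weights. It called 14 after nuclear rescaling, 18 without both libraries, and 0 with no filter (1509 at an unadjusted p under 0.05). Leaving out 1 library gave 1 to 56, with 2, 3 and 1 without Drd2 replicate 1, 2 or 3, 56 without PV replicate 6 and 20 without PV replicate 8. Of the 8 genes limma called 1, Drd2, with 1 FPKM in 1 library, TPM, quantile normalization, no trend, a robust trend, array weights and without both libraries. Of the pathway genes it called 1, Gpr12, with 1 FPKM in 1 library and quantile normalization. Quantile normalization moved the median of all genes from -0.28 to 0.05 and TPM to -0.50. The number of the 8 genes with no overlap between groups was 1, where 19% of all tested genes had none. It was 1 to 3 with 1 library left out, which separates groups more easily. Gpr6 joined Drd2 without PV replicate 8 or Drd2 replicate 3, and Drd1 and Ppp1r1b without PV replicate 7. Drd1 rested there on 7 fragments in PV replicate 6 and 1 in PV replicate 8. The share of all genes with a library left out was not computed, so nothing is read from these counts. With the longest transcript as length, 12 of 18 values above 0 were whole reads, against 18. Of the differences described gene by gene, none of them called, 10 changed sign under some alternative. On the log2 scale Ppp1r1a was 0.0101 (median of ratios), 0.143 (quantile), 0.141 (array weights), 0.00109 (nuclear rescaling) and 0.344 (without both libraries), and Prkar1a, in the same order, 0.172, 0.168, 0.0221, 0.162 and 0.0309. Gpr52 was -0.317 with a pseudocount of 0.1 FPKM and -0.0068 as TPM. Without both libraries Ddc was -0.0450 and Slc29a1 0.150. With 1 library left out the log2 ranges were -0.0169 to 1.79 for Ppp1r1b (lowest without PV replicate 6), -0.442 to 1.14 for Gpr52, -1.89 to 0.0085 for Maob, -0.573 to 0.302 for Ppp1r1a, -1.17 to 0.0084 for Prkaca, -0.239 to 0.107 for Prkar1a, -0.370 to 1.55 for Rasd2 and -1.79 to 0.166 for Slc29a1. The difference in mean FPKM of Drd3 ran from -2.49 without PV replicate 6 to 1.81 without Drd2 replicate 3.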
